A study of Homo sapiens with 8 samples.

Results

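The mature products of the miR-31 and miR-491 hairpins, which lie close to the tumour suppressor CDKN2A on the short arm of chromosome 9 (9p21), were followed in small RNA libraries of 786-O cells, an established line of human clear cell renal cell carcinoma. The members were chosen by name and position, as the 5p and 3p arms of both hairpins, and by 1 measured value, the raised level of hsa-miR-31-3p in circSOD2-sh replicate 2. All 4 members, hsa-miR-31-5p, hsa-miR-31-3p, hsa-miR-491-5p and hsa-miR-491-3p, were found among the 1482 known and 3112 known or predicted miRNAs of the count table. The study compared 4 libraries of cells given a circSOD2-sh plasmid, a short hairpin RNA against the circular RNA of the SOD2 gene, with 4 libraries of cells given a control plasmid (NC). Per the labels, both plasmids were delivered with a lipid reagent and total RNA was taken 48 h later, whereas the methods of the study describe a lentiviral vector and selection with puromycin, so the way the hairpin entered these cells is given in 2 ways. All 8 libraries come from 1 cell line and a transient or selected mixture of cells, and nothing in the labels says that replicates were separate cultures, so p-values measure the spread between these samples, which may be technical. circSOD2 itself is not measured by small RNA counts, and its knockdown was not checked here.

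A miRNA hairpin is cut by Drosha in the nucleus and by Dicer in the cytoplasm, and the duplex that results carries 1 strand from each arm. Most hairpins load mainly 1 of the strands, the guide, into an Argonaute protein, and the other, the passenger, is largely degraded. The guide finds messenger RNAs through its seed, bases 2 to 8. miR-31-5p is the guide of its hairpin and is known for repressing genes of invasion and metastasis such as RHOA and ITGA5 in breast cancer cells, while in other epithelia it has been described as promoting growth. miR-491-5p is a lower expressed miRNA described as a tumour suppressor that represses genes including BCL2L1. The region around CDKN2A is deleted in many tumours, those of the kidney included, and a deletion can reach the neighbouring miRNA genes. DNA copy number and the host transcripts were not analysed here.

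MIR31 spans chr9:21512115-21512185 on the minus strand of GRCh38. It lies in intron 1 of the MIR31HG transcript that spans it, MIR31HG being a long non-coding RNA gene read from the same strand. MIR491 spans chr9:20716105-20716188 on the plus strand, in an intron of the protein-coding gene FOCAD, which also runs on the plus strand. That intron is intron 1, 2 or 4, depending on which of the 3 FOCAD transcripts that span MIR491 is read. MIR31 lies 456 kb from CDKN2A, MIR491 lies 1252 kb from it, and 796 kb separate the 2 hairpins. The stretch between MIR31 and CDKN2A holds MTAP, the gene of a methionine salvage enzyme that is often lost with CDKN2A.

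The sequences of the 3 members with a RefSeq entry are shown, 5′ to 3′ from GRCh38.p14, because the counts rest on telling these short arms from other miRNAs and from each other. Capitals mark the seed, bases 2 to 8.
hsa-miR-31-5p, chr9:21512158-21512178, minus strand: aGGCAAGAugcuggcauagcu
hsa-miR-491-5p, chr9:20716120-20716141, plus strand: aGUGGGGAacccuuccaugagg
hsa-miR-491-3p, chr9:20716154-20716175, plus strand: cUUAUGCAagauucccuucuac
The 3 seeds differ from one another, and 0 other human mature miRNAs in the RefSeq table share any of them. hsa-miR-31-3p is named only. The hairpins place these arms within their precursors, and here capitals mark the mature arms that have an entry.
MIR31, 71 bases: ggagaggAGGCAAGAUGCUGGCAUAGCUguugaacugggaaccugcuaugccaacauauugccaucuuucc
MIR491, 84 bases: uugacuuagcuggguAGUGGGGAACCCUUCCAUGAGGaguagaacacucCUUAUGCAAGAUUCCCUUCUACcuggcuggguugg

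The NC libraries held 6386872 to 9245044 counts each and the circSOD2-sh libraries 3743860 to 4208276. Predicted miRNAs took 58.1 to 63.8% of each NC library but 3.54 to 4.93% of each circSOD2-sh library. Known miRNAs thus gave 2344870 to 3573638 counts per NC library against 3604691 to 4059249 per circSOD2-sh library. Levels are therefore given as normalized CPM, that is, CPM after TMM scaling, which sets the libraries level on the bulk of miRNAs, and 3 counts correspond to 0.46 to 0.674 normalized CPM. With this scaling the median log2 fold change of the 895 miRNAs tested was -0.0021, while scaling by library totals put it at 0.96. TMM gave 298 miRNAs called higher and 290 called lower in circSOD2-sh, and library totals gave 613 higher and 158 lower. Of the 412 known miRNAs with enough counts in circSOD2-sh, 24 were in replicate 2 more than 2 times as high as in each of replicates 1, 3 and 4. In NC replicate 4, 16 of 391 stood out in the same way. In the other 6 libraries that number was 0. Results are given with and without circSOD2-sh replicate 2, and those of the tested members and of the chromosome 9 and invasion lists also without NC replicate 4.

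The arms of miR-31 and miR-491 covered a wide range of levels. hsa-miR-31-5p was among the abundant miRNAs, ranked 25 to 26 of the known miRNAs in the 4 NC libraries and 31 to 37 in the 4 circSOD2-sh libraries. hsa-miR-31-3p ranked 139 to 156 in NC and 152 to 182 in circSOD2-sh, hsa-miR-491-5p ranked 256 to 299 in NC and 298 to 403 in circSOD2-sh, and hsa-miR-491-3p ranked 523 or lower in every library. In both hairpins the 5p arm gave most counts. Adaptor ligation favours some sequence ends, so levels of different miRNAs are not compared as amounts. The order of the 4 members was the same in all 8 libraries. 3 of the 4 passed the filter on low counts, and hsa-miR-491-3p did not.

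**Figure D1:**
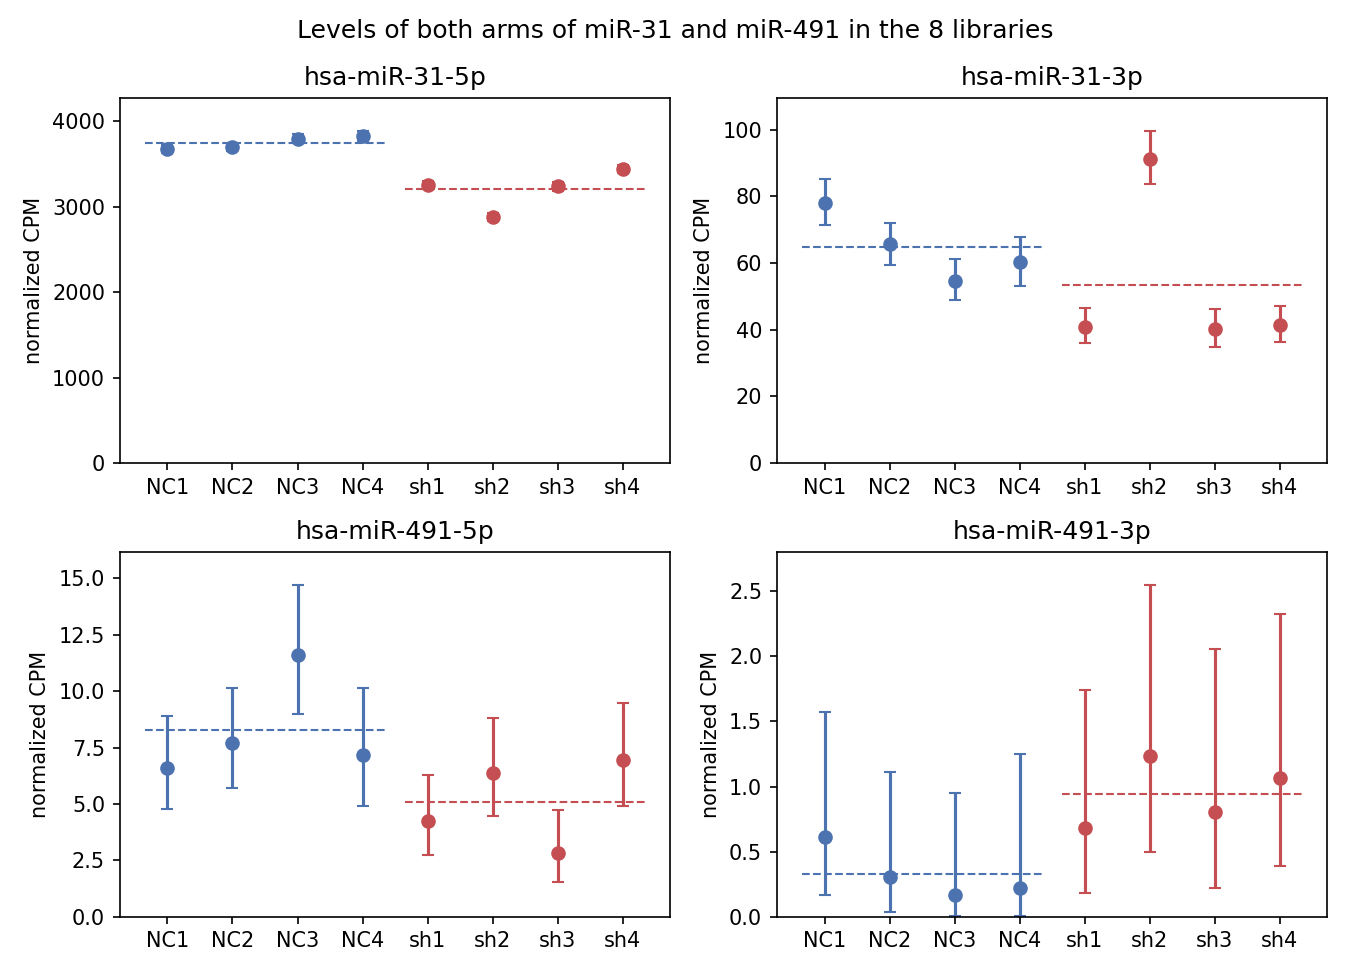
Normalized CPM of hsa-miR-31-5p, hsa-miR-31-3p, hsa-miR-491-5p and hsa-miR-491-3p in NC libraries 1 to 4 (blue) and circSOD2-sh libraries 1 to 4 (red), each on its own linear axis from 0. Bars are 95% Poisson intervals of the count and dashed lines the group means over 4 libraries. The 4 NC values of hsa-miR-31-5p lie above the 4 circSOD2-sh values, and hsa-miR-31-3p in circSOD2-sh replicate 2 stands at 91.3, above all other libraries.

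hsa-miR-31-5p, the guide strand of its hairpin, was slightly lower in circSOD2-sh than in NC. In bulk RNA of this kind fewer cells that make a miRNA and less of it per cell cannot be told apart. NC replicates 1 to 4 gave 23983, 24019, 22268 and 17020 counts, or 3679, 3698, 3797 and 3825 normalized CPM. circSOD2-sh replicates 1 to 4 gave 19162, 16320, 16131 and 19347 counts, or 3257, 2881, 3237 and 3441 normalized CPM. The NC libraries lay close together at 3750 ± 72.4 normalized CPM (SD, n = 4), the circSOD2-sh libraries at 3204 ± 234 (SD, n = 4), and the groups did not overlap. The log2 fold change, circSOD2-sh over NC, was -0.23 (SE 0.07), and edgeR's quasi-likelihood test gave an adjusted p of 0.0162 over the 895 miRNAs tested. Without circSOD2-sh replicate 2, the lowest library, the log2 fold change was -0.28 (SE 0.07, edgeR adjusted p = 0.00385), and without NC replicate 4 it was -0.26 (edgeR adjusted p = 0.0138). It was -0.36, -0.38 and -0.38 without circSOD2-sh replicate 1, 3 or 4, each past the threshold. Each such fit set the filter and the scaling anew, so the median of all miRNAs moved as well. That median was -0.0021 with all 8 libraries and -0.10 without circSOD2-sh replicate 1 or 3. It was -0.09 without circSOD2-sh replicate 4 and -0.145 without replicate 2. The shifts in fold change therefore do not show the weight of the left-out library alone. An exact two-sided permutation test of the 4 against 4 libraries gave p = 0.0286, the smallest that this design allows. Any groups that do not overlap give that p. Library totals and the upper quartile gave it too, with circSOD2-sh the higher group.

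A call of this kind was common in these libraries. Among the 895 miRNAs tested 65.7% were called, 32.4% lower and 33.3% higher, and 60.3% had groups that did not overlap. Without circSOD2-sh replicate 2 these shares were 68.2%, 36.9%, 31.3% and 65.9% of 969 miRNAs. The fall of hsa-miR-31-5p was at the 43rd percentile of all fold changes, so many miRNAs had a lower fold change. Its share of known miRNA counts ran from 0.664 to 0.726% in NC and from 0.402 to 0.515% in circSOD2-sh. This share is itself scaled by the known total, so it falls when other known miRNAs rise.

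The direction for hsa-miR-31-5p depended on the scaling. Library totals gave a log2 fold change of 0.74 (edgeR adjusted p = 1.99e-05) and the upper quartile 0.62 (edgeR adjusted p = 0.000542), both past the threshold in the opposite direction. In the deposited CPM, which divide by all reads, the 4 NC libraries stood at 2436 to 2595 and the 4 circSOD2-sh libraries higher, at 3292 to 4195. Relative to the median of all miRNAs under the same scaling it was -0.22 with TMM, -0.22 with RLE, -0.21 with the upper quartile and -0.22 with library totals. A change of scaling moves all fold changes by nearly the same amount, so these values are nearly alike by construction. Leaving out circSOD2-sh replicate 2 put the value relative to the median at -0.14 to -0.13 under the 4 scalings. With TMM, the median of known miRNAs alone was -0.11 over 8 libraries and -0.26 without circSOD2-sh replicate 2. In that last fit hsa-miR-31-5p, at -0.28, lay close to the known median. The call was also lost with no filter on low counts (edgeR adjusted p = 0.0661) and when only known miRNAs were fitted (log2 fold change -0.18, edgeR adjusted p = 0.0854).

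**Figure D2:**
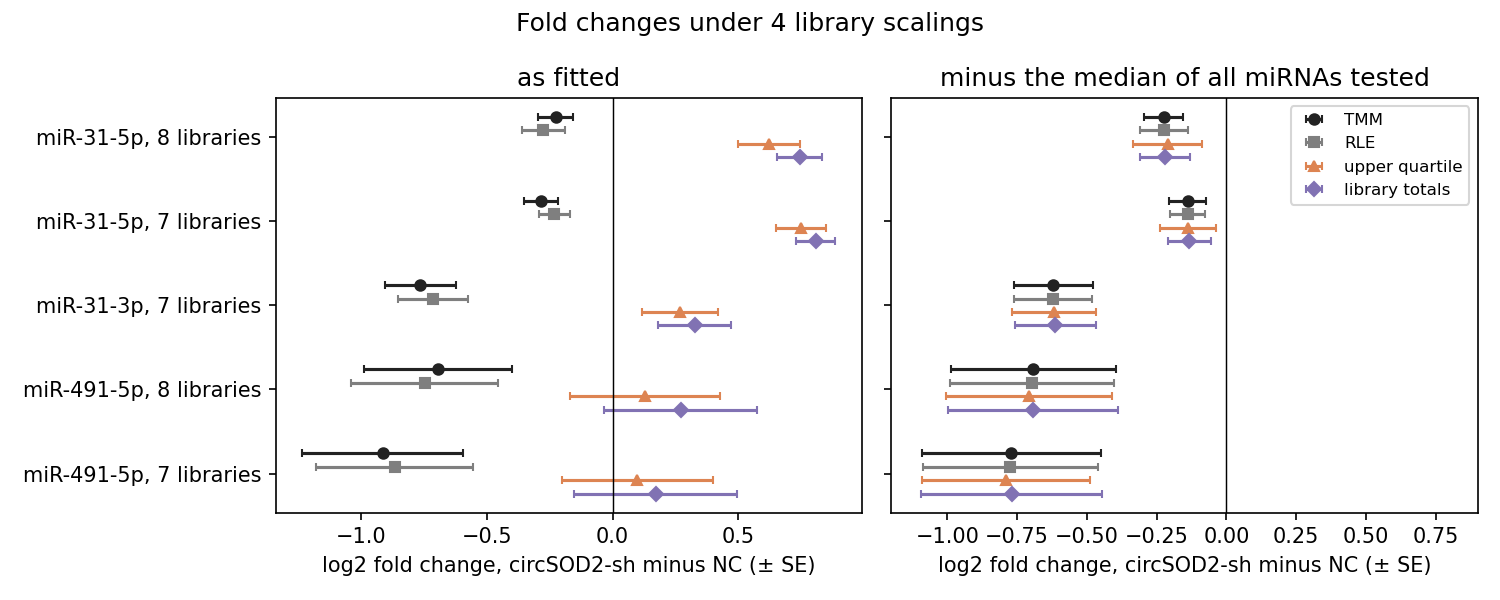
Log2 fold changes, circSOD2-sh minus NC, of 3 members (rows) under 4 library scalings (symbols), with bars of 1 SE, as fitted (left) and after taking away the median of all miRNAs tested under that scaling (right). On the left hsa-miR-31-5p moves from -0.23 with TMM to 0.74 with library totals, and on the right it lies between -0.22 and -0.21 in the fits to 8 libraries. Taking away the median removes most of what the scalings differ in, so the likeness on the right is by construction.

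hsa-miR-31-3p, the passenger strand, was lower than NC in circSOD2-sh replicates 1, 3 and 4 and higher than NC in replicate 2. The NC replicates 1 to 4 gave 509, 426, 321 and 268 counts, or 78.1, 65.6, 54.7 and 60.2 normalized CPM. The circSOD2-sh replicates 1, 3 and 4 gave 241, 201 and 233 counts, or 41.0, 40.3 and 41.4 normalized CPM, while replicate 2 gave 517 counts, or 91.3 normalized CPM. Outside replicate 2 the groups did not overlap, with an NC mean of 64.7 ± 9.98 (SD, n = 4) beside a circSOD2-sh mean of 40.9 ± 0.557 (SD, n = 3). In that comparison the log2 fold change was -0.76 (SE 0.14, edgeR adjusted p = 0.000889), against a median of -0.14 (log2) over the 969 miRNAs tested. With all 8 libraries it was -0.27 (SE 0.27), a value given without a test because replicate 2 entered the choice of members. Without both circSOD2-sh replicate 2 and NC replicate 4, the log2 fold change was -0.79 (SE 0.14, edgeR adjusted p = 0.000424). Replicate 2 was set apart for its own hsa-miR-31-3p level, which goes against the fall. The p-values of hsa-miR-31-3p from fits without it do not allow for that choice and can be too small.

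Fitted with known miRNAs only, the log2 fold change without circSOD2-sh replicate 2 was -0.50 (edgeR adjusted p = 0.0229). The direction of hsa-miR-31-3p outside replicate 2 depended on the scaling too. Library totals gave a log2 fold change of 0.33 (edgeR adjusted p = 0.0544) and the upper quartile 0.27 (edgeR adjusted p = 0.11). Relative to the median of all miRNAs it was -0.62 with TMM, RLE and the upper quartile and -0.61 with library totals, at the 25.7th to 25.9th percentile of all fold changes.

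circSOD2-sh replicate 2 is described apart, with no test, since its hsa-miR-31-3p level was used in choosing the members. There hsa-miR-31-3p was 2.23 times the mean of the other 3 circSOD2-sh libraries, 1.41 times the NC mean and 1.17 times the highest NC library. The 95% Poisson interval of its level, 83.6 to 99.5 normalized CPM, covers counting error only. By this ratio hsa-miR-31-3p ranked 30 of 412 known miRNAs, whose median ratio was 1.07 and whose middle 50% ran from 0.905 to 1.30. The guide strand moved the other way, since hsa-miR-31-5p was 0.870 times the mean of the other 3 libraries and ranked 337 of 412. hsa-miR-491-5p was 1.36 times their mean but 0.916 times the highest of them, so it lay within their range.

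The known miRNAs that stood out in circSOD2-sh replicate 2 were mostly others. hsa-miR-31-3p, at 2.20 times the highest other circSOD2-sh library, had place 23 among the 24 that passed 2 times. The list was led by the neuronal miRNA hsa-miR-124-3p at 3217 against at most 3.01 normalized CPM, then hsa-miR-9-5p at 852 against at most 30.3 and hsa-miR-9-3p at 247 against at most 9.03. The neural marker list, summed, reached 4461 normalized CPM in replicate 2 and 94.1 to 111 in replicates 1, 3 and 4. The stromal and muscle list summed to 321 against 37.0 to 70.2, the leukocyte list to 14.7 against 2.13 to 3.21, and the erythroid list to 39.9 against 10.2 to 18.5. The leukocyte list did not rise as a whole. Replicate 2 held 46 counts of hsa-miR-142-5p and 36 of hsa-miR-150-5p, but 1 of hsa-miR-142-3p and 0 of hsa-miR-223-3p. The epithelial and keratinocyte list summed to 4720 in replicate 2, within the 4417 to 4887 of the other 3 libraries. The part of these other miRNAs in the level of hsa-miR-31-3p was not tested. In NC replicate 4, where the stromal and muscle list summed to 754 against 23.9 to 30.5, hsa-miR-31-3p lay within the range of the other NC libraries and hsa-miR-31-5p was 3825 against at most 3797.

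**Figure D3:**
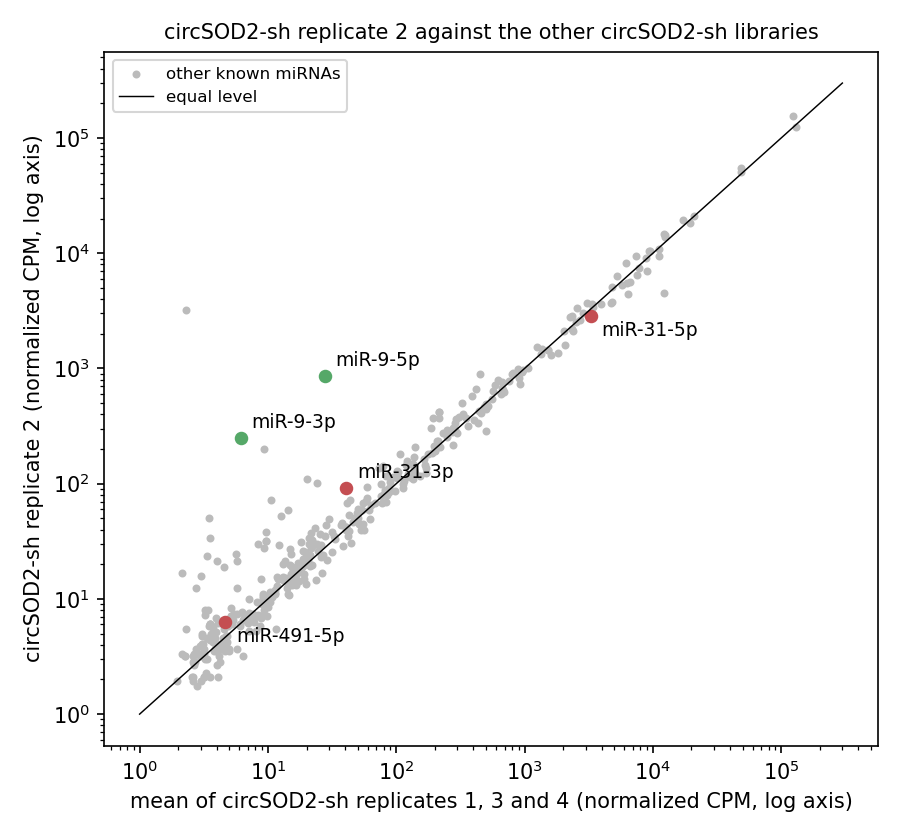
Level of 412 known miRNAs in circSOD2-sh replicate 2 (vertical, normalized CPM, log axis) against the mean of circSOD2-sh replicates 1, 3 and 4 (horizontal, normalized CPM, log axis), with a line of equal level. hsa-miR-31-3p (red) lies above the line at 91.3 against 40.9, hsa-miR-31-5p (red) just below it at 2881 against 3312, and hsa-miR-9-5p and hsa-miR-9-3p (green) lie far above it.

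The balance of the 2 strands of miR-31 needs no library scaling, because both arms are counted in the same library. The 3p arm gave 2.08, 1.74, 1.42 and 1.55% of the hairpin's counts in NC replicates 1 to 4. It gave 1.24, 1.23 and 1.19% in circSOD2-sh replicates 1, 3 and 4, and 3.07% in replicate 2 (95% Clopper-Pearson interval 2.82 to 3.34%). Thus the 3p share of the 3 alike circSOD2-sh libraries lay below every NC library, and that of replicate 2 lay above every other library. The mean log2 ratio of 5p to 3p was 5.86 ± 0.24 (SD, n = 4) over the NC libraries and 6.32 ± 0.03 (SD, n = 3) over circSOD2-sh replicates 1, 3 and 4, while replicate 2 stood at 4.97. With all 8 libraries the difference, circSOD2-sh minus NC, was 0.13 (log2, SE 0.32), smaller than its error and given without a test for the reason above. The difference without replicate 2 was 0.46 (log2, SE 0.16, limma adjusted p = 0.0443), beside 48.1% of 231 hairpins called. This call was near the threshold, and its p does not allow for leaving out replicate 2 by its hsa-miR-31-3p level. It was lost in 6 of the 7 fits that left out 1 more library, all except that without NC replicate 3, with values of 0.36 to 0.54 and limma adjusted p of 0.031 to 0.123. It was also lost with a constant of 0.1 in place of 0.5 normalized CPM on each arm (0.47, limma adjusted p = 0.0652).

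In circSOD2-sh replicate 2 the 5p to 3p ratio of miR-31 was 2.55-fold lower than in the other circSOD2-sh libraries. Among 105 hairpins this log2 difference of -1.35 was the farthest towards the 3p arm. That rank is a description only, since it rests on the hsa-miR-31-3p level used in choosing the members. The next were miR-199b at -1.27, miR-15b at -1.22 and miR-454 at -1.09, and the median hairpin was at 0.12. Pooled over circSOD2-sh replicates 1, 3 and 4, 54640 counts of hsa-miR-31-5p stood beside 675 of hsa-miR-31-3p, or 80.9 to 1. At that ratio the 517 counts of hsa-miR-31-3p in replicate 2 would stand beside 41850 counts of hsa-miR-31-5p, and 16320 were counted. Read from the other strand, the 16320 counts would stand beside 202 counts of hsa-miR-31-3p. Across libraries, log2 levels of the 2 arms had r = -0.05 over all 8 and r = 0.80 over the 7 without replicate 2, given as descriptions.

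**Figure D4:**
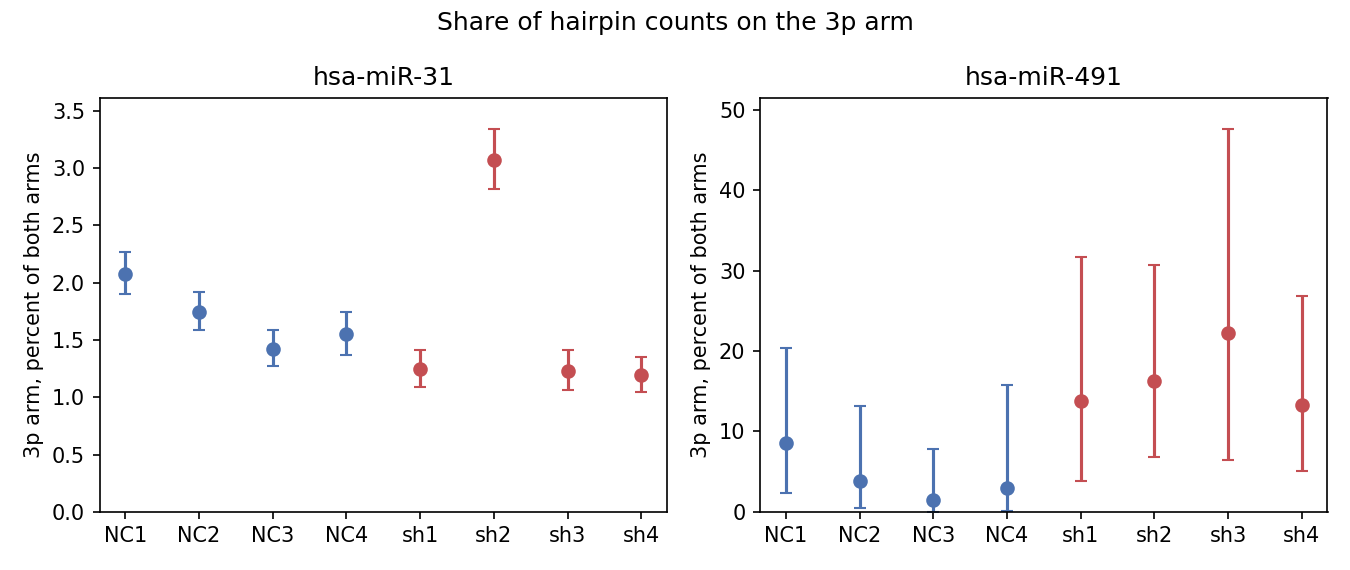
Percent of the counts of each hairpin that came from the 3p arm, for hsa-miR-31 and hsa-miR-491, in NC libraries 1 to 4 (blue) and circSOD2-sh libraries 1 to 4 (red), with 95% Clopper-Pearson intervals, on linear axes from 0. For hsa-miR-31 the circSOD2-sh libraries lie at 1.19 to 1.24% except replicate 2 at 3.07%, and for hsa-miR-491 the intervals are wide because the 3p arm had at most 7 counts.

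hsa-miR-491-5p was low in all libraries, and its groups overlapped. NC replicates 1 to 4 gave 43, 50, 68 and 32 counts, or 6.60, 7.70, 11.6 and 7.19 normalized CPM. circSOD2-sh replicates 1 to 4 gave 25, 36, 14 and 39 counts, or 4.25, 6.36, 2.81 and 6.94 normalized CPM. NC replicate 3 was the highest library and circSOD2-sh replicate 3 the lowest, and circSOD2-sh replicate 4 lay above NC replicate 1. The NC mean was 8.27 ± 2.26 (SD, n = 4), and the circSOD2-sh mean was 5.09 ± 1.91 (SD, n = 4). The log2 fold change of -0.69 (SE 0.29) did not pass the threshold in edgeR's quasi-likelihood test (adjusted p = 0.0619), and an exact two-sided permutation test gave p = 0.0571.

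The call for hsa-miR-491-5p turned with several choices. With circSOD2-sh replicate 2 left out the log2 fold change was -0.91 (SE 0.32, edgeR adjusted p = 0.0272), and it passed as well without NC replicate 1 (-0.84, edgeR adjusted p = 0.0495) or without circSOD2-sh replicate 4 (-0.996, edgeR adjusted p = 0.0221), but not without NC replicate 4 (-0.79, edgeR adjusted p = 0.0591). Library totals gave 0.27 (edgeR adjusted p = 0.412) and the upper quartile 0.13 (edgeR adjusted p = 0.699), the opposite sign. Relative to the median of all miRNAs the value lay between -0.71 and -0.69 under the 4 scalings with 8 libraries, a likeness that is by construction. The counts were 14 to 68 a library, and replicates could differ by more than counting error: the 95% Poisson interval of circSOD2-sh replicate 3 ran from 1.54 to 4.71 normalized CPM, and that of circSOD2-sh replicate 4 from 4.93 to 9.48.

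hsa-miR-491-3p was at or near the floor of detection. The NC libraries held 4, 2, 1 and 1 counts and the circSOD2-sh libraries 4, 7, 4 and 6. On the scale of normalized CPM the NC libraries lay at 0.171 to 0.614 and the circSOD2-sh libraries at 0.680 to 1.24, while NC replicate 1 and circSOD2-sh replicates 1 and 3 had the same count of 4. Pooled over libraries, 8 counts in NC and 21 in circSOD2-sh gave a ratio of 2.76 (95% interval 1.18 to 7.22, counting error only). Leaving out circSOD2-sh replicate 2 gave a ratio of 2.48, with an interval of 0.969 to 6.81. As hsa-miR-491-3p did not pass the filter, it has no fold change in the 8-library fit. Fitted with no filter, its log2 fold change was 1.39 (SE 0.61, edgeR adjusted p = 0.124). An exact two-sided permutation test of 4 against 4 libraries gave p = 0.0286, the smallest possible, which any groups that do not overlap give. The groups were apart under each of the 4 scalings, and with TMM 60.3% of the 895 miRNAs tested had groups apart. In shares of known miRNA counts hsa-miR-491-3p overlapped: NC replicate 1 stood at 0.00012%, above circSOD2-sh replicates 1 (0.000106%) and 3 (0.000111%).

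The strand balance of miR-491 differed between the groups. The 3p arm gave 8.51, 3.85, 1.45 and 3.03% of the hairpin's counts in NC replicates 1 to 4 and 13.8, 16.3, 22.2 and 13.3% in circSOD2-sh replicates 1 to 4. The lowest circSOD2-sh library was above the highest NC library, with 95% Clopper-Pearson intervals as wide as 6.41 to 47.6% for circSOD2-sh replicate 3 and 0.0367 to 7.81% for NC replicate 3. The log2 ratio of 5p to 3p went from 3.40 ± 0.61 (SD, n = 4) over the NC libraries to 1.90 ± 0.39 (SD, n = 4) over the circSOD2-sh libraries, a change of -1.50 (SE 0.33, limma adjusted p = 0.00448). In this fit 43% of 221 hairpins were called. The change was -1.56 without circSOD2-sh replicate 2 (SE 0.37, limma adjusted p = 0.0104). The ratio stands on 1 to 7 counts of hsa-miR-491-3p a library, and its size depends on the constant of 0.5 normalized CPM added to each arm, since the change was -2.09 (limma adjusted p = 0.00676) with a constant of 0.1 and -0.89 (limma adjusted p = 0.00975) with 2. Without NC replicate 4 it was -1.54 (limma adjusted p = 0.0122).

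The miRNAs whose levels ran most like those of the members over the 8 libraries came from other chromosomes. Of 478 known miRNAs compared on log2 levels, those nearest to hsa-miR-31-5p were hsa-miR-151a-5p (r = 0.98), hsa-miR-151b (r = 0.98) and hsa-miR-92a-1-5p (r = 0.97). hsa-miR-151a-5p and hsa-miR-151b are near copies of each other whose reads may be counted for both. The NC libraries held hsa-miR-151a-5p at 5520 to 5639 normalized CPM and the circSOD2-sh libraries at 3752 to 4918, lowest in replicate 2 as hsa-miR-31-5p was. Nearest to hsa-miR-31-3p were hsa-miR-365a-3p and hsa-miR-365b-3p, which had identical counts (r = 0.93), and hsa-miR-29b-3p (r = 0.90). hsa-miR-365a-3p was 423 normalized CPM in circSOD2-sh replicate 2, 198 to 227 in replicates 1, 3 and 4 and 283 to 337 in NC, the order that hsa-miR-31-3p had. It was picked for its correlation over these libraries, replicate 2 included, so the shared order is no separate result. Without replicate 2 its r with hsa-miR-31-3p was 0.88. Nearest to hsa-miR-491-5p were hsa-miR-30d-3p (r = 0.89), hsa-miR-30b-3p (r = 0.88) and hsa-miR-6087 (r = 0.88). These likenesses are descriptions over 8 points that share library and depth.

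Other miRNAs of the short arm of chromosome 9 were nearly unmeasured. RefSeq places 26 other mature miRNAs there, of which 15 were in the count table and 1 passed the filter. That was hsa-miR-101-3p, which a second hairpin on chromosome 1 also produces, with a log2 fold change of 0.09 (SE 0.21, edgeR adjusted p = 0.729) and -0.24 (edgeR adjusted p = 0.183) without circSOD2-sh replicate 2. It was 0.20 without NC replicate 4 and -0.08 without both libraries, not called in either fit. Of the other 14, 13 had under 10 counts in every library, and hsa-miR-873-5p had 47 counts in circSOD2-sh replicate 2 and at most 1 elsewhere. Thus among the 9p miRNAs of these cells the 2 arms of miR-31 and hsa-miR-491-5p were, beside hsa-miR-101-3p, those with enough counts in both groups to test.

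On the long arm of chromosome 9, 22 of 46 miRNAs in the table were tested, of which 3 rose, 5 fell and 14 did not pass, with a median log2 fold change of -0.14 beside -0.11 for all 463 known miRNAs tested. Over all 895 miRNAs, 33.3% were called higher and 32.4% lower. In the fit without circSOD2-sh replicate 2, 4 rose and 12 fell of 23, beside 31.3% and 36.9% of all 969, and the list median was -0.23 beside -0.26 for known miRNAs. Dropping NC replicate 4 gave 4 higher and 5 lower of 22, and dropping both libraries 5 higher and 12 lower of 23. The 3 of highest level were hsa-let-7f-5p (log2 fold change -0.16, edgeR adjusted p = 0.106), hsa-miR-27b-3p (-0.08, edgeR adjusted p = 0.223) and hsa-let-7a-5p (-0.62, edgeR adjusted p = 0.000113), the let-7 pair being growth-restraining miRNAs that also have copies on other chromosomes.

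miR-31-5p belongs with other miRNAs described as suppressors of invasion or metastasis, and 11 of these were listed. 8 were tested, of which 1 rose, 5 fell and 2 did not pass, with a median log2 fold change of -0.33 beside -0.11 for all known miRNAs tested, and beside 33.3% called higher and 32.4% lower over all miRNAs. With circSOD2-sh replicate 2 left out, 0 rose, 6 fell and 2 did not pass, with a median of -0.58 beside -0.26 for known miRNAs, and beside 31.3% called higher and 36.9% lower over all miRNAs. Dropping NC replicate 4 gave 1 higher and 5 lower of 8, and dropping both libraries 0 higher and 6 lower of 7. hsa-miR-146a-5p, which restrains NF-kB signalling, fell by 0.31 on the log2 scale (edgeR adjusted p = 0.00224), and hsa-miR-148a-3p fell by 0.32 (edgeR adjusted p = 0.00991). hsa-miR-30a-5p, abundant in kidney tubule cells, rose by 0.25 (edgeR adjusted p = 0.035), and this call was lost without circSOD2-sh replicate 2 (0.09, edgeR adjusted p = 0.366). hsa-miR-126-3p, an endothelial miRNA, was at -0.33 (edgeR adjusted p = 0.362). Library totals put the median of all miRNAs at 0.96 on the log2 scale, so these directions are relative to the bulk of miRNAs.

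A search of circSOD2 for sites of the members found none. circSOD2 was taken as the 462 bases of 3 SOD2 exons that the study's junction-spanning hairpins identify on GENCODE transcripts. The 7 letters complementary to each seed, read on the circle's own strand and across its junction, are TCTTGCC for hsa-miR-31-5p, TCCCCAC for hsa-miR-491-5p and TGCATAA for hsa-miR-491-3p, and each had 0 matches. Of 1298 known miRNAs with a RefSeq sequence, 43 (3.31%) had a match. hsa-miR-31-3p was not searched. The absence of a match says only that these letters are not in this stretch.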

How the data were processed

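Small RNA libraries of 4 NC and 4 circSOD2-sh samples were compared. The authors deposited raw counts per mature miRNA and CPM per miRNA, with listed counts making up part of the reads that the CPM were divided by. Their table of fold changes and p-values was not used. FastQC 0.11.2, Trimmomatic 0.36, Bowtie 1.1.1 and GRCh38 are named in the submitters' processing notes, without settings; how reads shared by near-identical miRNAs were assigned is not given in the sources used here.

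Counts were fitted with edgeR 4.0.16 (TMM, filterByExpr with a minimum count of 10, prior count 0.125, quasi-likelihood test) in R 4.3.3, with Benjamini-Hochberg adjustment over all miRNAs tested and a threshold of 0.05. Log2 ratios of 5p to 3p normalized CPM, with 0.5 added to each arm, were fitted with limma 3.58.1 over all hairpins. Every fit was repeated without circSOD2-sh replicate 2. Fits that left out libraries set the filter and the scaling anew, while the normalized CPM given keep the scaling of all 8 libraries. DESeq2 1.42.0 and limma on the deposited CPM were alternatives, and the list counts without NC replicate 4 were added after seeing the data. Intervals are 95% Poisson or Clopper-Pearson and, like the floor of 3 counts, cover counting error only, since reads without molecular identifiers are not independent molecules. Positions come from GENCODE on GRCh38 and sequences from RefSeq on GRCh38.p14. Of 1482 known miRNAs, 1298 matched a RefSeq mature sequence by name, including 3 of 4 members.

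The members and lists were chosen with earlier results of these data known. Genes named are the members, the 3 known miRNAs most correlated with each tested member (mean of at least 10 counts), tested neighbours on the short arm of chromosome 9, the 3 highest on the long arm, and the 4 highest of the invasion list; others (hsa-miR-873-5p, the hairpins and miRNAs that stood out in circSOD2-sh replicate 2) were chosen after their values were seen. The renal tubule list summed to 53495 to 67169 normalized CPM in the 8 libraries, and the hypoxia list holds hsa-miR-210-3p alone.

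No replicates were alike within sampling noise: chi-square per degree of freedom between libraries of a group was 11.4 to 162.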

Additional observations from a re-analysis of the deposited data

Results flagged for a closer look

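Each group of 4 libraries was examined for a highest or lowest library whose gap to its neighbour exceeds Dixon's 95% critical value for 4 samples. Beside the values that chose the members, 30 groups of values were examined and 7 were past it, 3 in circSOD2-sh replicate 2 and 4 in NC replicate 4. Chance alone gives about 1.5, but the values share libraries and are not independent.

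The values of miR-31 in circSOD2-sh replicate 2 also stood apart, and since they entered the choice of the members they are given as a description and are not in that count. hsa-miR-31-3p was 91.3 normalized CPM there and 40.3 to 41.4 in replicates 1, 3 and 4. The log2 ratio of the miR-31 arms, 5p over 3p, was 4.97 there and 6.30 to 6.36 in those replicates.

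The 7 were sums over marker lists. In circSOD2-sh replicate 2 the neural list summed to 4461 normalized CPM, the stromal and muscle list to 321 and the leukocyte list to 14.7. In NC replicate 4 the stromal and muscle list summed to 754, the leukocyte list to 17.1, and the erythroid list to 114 against 8.19 to 23.8 in NC replicates 1 to 3. The other miRNAs of the chromosome 9 short arm summed to 269 against 179 to 190. That sum was nearly all hsa-miR-101-3p, also made on chromosome 1, with 1182 counts in NC replicate 4 and at most 5 for any other. The leukocyte sum there was mostly hsa-miR-142-5p, with 71 counts against 3 of hsa-miR-142-3p, 2 of hsa-miR-150-5p and 0 of hsa-miR-223-3p. Neither arm of miR-491 was past the critical value in either group.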

How the results depend on the processing

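hsa-miR-31-5p, with a log2 fold change of -0.23, was reversed by library totals (0.74), the upper quartile (0.62) and limma on the deposited CPM with 1 added (0.59) or 0.1 added (0.59), and fell short of the threshold with no low-count filter (-0.25) and with known miRNAs only (-0.18); leaving out 1 library gave -0.38 to -0.26, each past the threshold. hsa-miR-31-3p without circSOD2-sh replicate 2 (-0.76) was reversed by library totals (0.33), the upper quartile (0.27) and limma on the deposited CPM (0.19 with either constant); leaving out 1 more library gave -0.79 to -0.61, a mean of at least 50 counts -0.54 and known miRNAs only -0.50, each past the threshold. hsa-miR-491-5p (-0.69) was reversed by library totals (0.27), the upper quartile (0.13) and limma on the deposited CPM (0.0701 with 1 added and 0.0727 with 0.1), passed the threshold with RLE (-0.75), DESeq2 (-0.75) and without both NC replicate 4 and circSOD2-sh replicate 2 (-0.96), and ran from -0.996 to -0.53 with 1 library left out. The scalings that reverse these values move the median of all miRNAs to 0.83 (upper quartile) or 0.96 (library totals). The calls for hsa-miR-31-3p do not allow for leaving out circSOD2-sh replicate 2 by its own level.

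The arm ratio change of miR-491 (-1.50) stayed negative and past the threshold under all 12 alternatives, at -1.80 to -1.28 with 1 library left out, -2.09 with a constant of 0.1 and -0.89 with a constant of 2. The alternative limited to arms with a mean of at least 50 counts is not among them, because miR-491 has too few counts to enter it. That of miR-31 without circSOD2-sh replicate 2 (0.46) fell short of the threshold with a constant of 0.1 (0.47) and with a replicate block (0.44, limma adjusted p = 0.107), and ran from 0.36 to 0.54 with 1 more library left out. The level of hsa-miR-31-3p in circSOD2-sh replicate 2, 2.23 times that of the other circSOD2-sh libraries, was 2.10 times with RLE, 2.13 with library totals, 1.98 with the upper quartile and 2.12 in the deposited CPM, given as a description.

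Of 895 miRNAs, 588 were called; 361 of 502 were called with a mean of at least 50 counts and 246 of 463 known miRNAs fitted alone, and 537 to 661 with 1 library left out. Without circSOD2-sh replicate 2, 661 were called, and 354 and 235 in the same 2 alternatives, with 577 to 659 when 1 more library was left out. Hairpins with a changed arm ratio numbered 95, and 43 of 67 with arms of at least 50 counts (84 to 111 with 1 library left out); without circSOD2-sh replicate 2 they numbered 111, and 49 of 65 (88 to 108).

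The replicate numbers are shared by NC and circSOD2-sh, but deviations of same-numbered libraries from their group means had correlations of 0.26, -0.0994, 0.0964 and -0.17, so the numbers were not taken to pair the libraries. A replicate block called 574 miRNAs. Beside the miR-31 arm ratio it changed no other call for the members. The causes of these changes were not tested. Depth limits hsa-miR-491-3p most, at 1 to 7 counts a library.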
